A study of Ovis aries with 95 samples.

Results

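The hypothalamus of fetal sheep was compared between 120 and 145 d of gestation. The comparison used the 4 arrays labelled hypothalamus at 145 d and the 4 labelled hypothalamus at 120 d, 8 of the 95 arrays of the series, across all gene probes. The 4 hypothalamus arrays at 130 d were used to show timing. In the series, RNA from 4 brain regions (hypothalamus, hippocampus, brainstem, cortex), taken from fetuses of several ages and newborn lambs, was labelled with the dye Cy3 and hybridized 1 sample to an array. The fetuses of all groups were untreated, and their mothers showed no sign of labor. The 145 d label stands for fetuses taken at 142 to 144 d. Each group held 1 pair of twins, which the labels do not mark, so the arrays were treated as independent. Strain, genotype and sex were not given in the sources used here. No pooling of animals was stated.

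The hypothalamus is the part of the forebrain that controls the pituitary, feeding, fluid balance, body temperature and the stress response. Its neurons make peptides that act as hormones or transmitters, among them oxytocin, GHRH, GnRH and AGRP. In the late-gestation sheep fetus the hypothalamus drives the pituitary and adrenal activity that precedes birth, while precursor cells stop dividing and astrocytes and oligodendrocytes mature.

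The tissue label was checked against hypothalamic markers. Of 18 markers chosen for this, 9 had a probe that could be named, and 7 of these had their highest regional median in hypothalamus, over 12 arrays a region at 120, 130 and 145 d. For AGRP, GHRH, GAL and GNRH1 every hypothalamus array lay above every array of the other regions. OXT, POMC and PMCH overlapped other regions. The median of PMCH was 6.71 beside 6.55 in hippocampus, and that of POMC 10.50 beside 9.89 in brainstem. NPY and SST were not highest in hypothalamus. AVP, CRH, TRH, HCRT, CARTPT, SIM1, OTP, NKX2-1 and SIX3 had no named probe, so they give no check. Among pituitary genes, POU1F1 and GH were each well above background on 2 of the 12 hypothalamus arrays, while CGA, the alpha subunit of the pituitary glycoprotein hormones, was well above background on all 12 and ranged from 6.64 to 12.40 on the log2 scale. FSHB was well above background on 5 of the 12. FSHB, PRL and CGA were highest on 130 d replicate 2, at 9.06, 9.53 and 12.40, where the mean of the 10 pituitary genes tested was 8.39, beside 7.05 to 7.66 on the other arrays. CGA ran from 8.09 to 10.41 at 120 d and from 6.64 to 11.79 at 145 d. The part of pituitary tissue in the values of any age was not tested.

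Each array carries 15208 gene spots with 15008 different probes. Levels are log2 intensities after background correction and quantile normalization, so a difference of 1 is a doubling. Of these probes 13627 were above the negative controls and gave 13075 genes for testing. Gene names limit the description. Of the genes tested, 900 had a symbol, 293 had only a description of their product, and the remaining 11882 were known only by an accession. On the 12 hypothalamus arrays at the 3 ages, 75.3 to 86.8% of gene spots were well above background, and the arrays correlated with each other at 0.933 to 0.989 over all genes. Between 14 and 288 probes an array lay more than 2 below the other arrays of the same age, and up to 74.9% of these were in the 20 rows at each end of the array, where 20.4% of the probes lie. Among these 12 arrays, 120 d replicate 4 stood apart in immune genes and 145 d replicate 1 in having the lowest correlations, and results without them are given below. At 130 d replicate 2 stood apart in pituitary genes and replicate 4 in neuropeptides. These arrays bear on timing and, through the spread fitted over all ages, on the SE and p of the main comparison.

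The probe sequences show which stretch of a transcript a value reports, and how far a second probe for the same gene is a separate reading. They are taken from the array files, which give no genome coordinates, and they are shown for the 7 genes on which the glial, cell cycle and regional results turn. Each is 60 bases long and written in lower case, with capitals for the stretch that both probes of a gene share. The paired EAAT2 probes share 58 bases, those of MT3 share 59 and those of LMNB1 share 30, so that for EAAT2 and MT3 the second probe repeats the same reading, while the LMNB1 probes start 30 bases apart.
EAAT2, first probe: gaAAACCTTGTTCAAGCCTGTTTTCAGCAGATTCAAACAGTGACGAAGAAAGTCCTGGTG
EAAT2, second probe: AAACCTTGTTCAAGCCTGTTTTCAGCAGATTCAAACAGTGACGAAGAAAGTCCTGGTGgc
MT3, first probe: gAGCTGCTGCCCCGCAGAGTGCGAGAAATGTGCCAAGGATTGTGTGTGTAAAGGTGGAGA
MT3, second probe: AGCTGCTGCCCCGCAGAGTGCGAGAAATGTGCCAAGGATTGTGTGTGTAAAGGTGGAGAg
LMNB1, first probe: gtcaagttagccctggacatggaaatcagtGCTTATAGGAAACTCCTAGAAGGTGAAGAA
LMNB1, second probe: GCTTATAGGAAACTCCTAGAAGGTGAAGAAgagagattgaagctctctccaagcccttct
CCNA2: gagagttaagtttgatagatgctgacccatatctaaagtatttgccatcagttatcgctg
CDK1: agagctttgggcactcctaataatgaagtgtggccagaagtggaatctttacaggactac
CAPNS1: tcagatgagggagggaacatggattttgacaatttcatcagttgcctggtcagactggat
Amino acid system N transporter: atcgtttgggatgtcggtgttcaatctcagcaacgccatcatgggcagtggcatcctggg

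Between 120 and 145 d, EAAT2 and MT3 rose, which were 2 of the 9 astrocyte genes tested. Of these 9, 6 lay above 0 and 3 below. CCNA2, CDK1 and LMNB1 fell, which were 3 of the 14 cell cycle genes tested, with 3 above 0 and 11 below. EAAT2, a glutamate transporter, was 2.25-fold higher at 145 d, and CCNA2, cyclin A2, was 2.28-fold lower. In all, 71 of the 13075 genes passed at an adjusted p under 0.05 (0.543%; limma with Benjamini-Hochberg adjustment over all genes tested), of which 29 rose (0.222%) and 42 fell (0.321%). The rises were between 0.66 and 1.76 with a median of 1.06, and the falls between -2.02 and -0.54 with a median of -0.90, on the log2 scale. At an unadjusted p under 0.05, 5.15% of genes were higher and 8.01% lower at 145 d. The 4 arrays at 145 d lay wholly above the 4 at 120 d for 3.09% of genes and wholly below them for 5.82%. Of the 71 genes 70 had no overlap between the ages. EAAT2 and CCNA2 passed in all 8 fits that left out 1 array, MT3 in 1, CDK1 in 3 and LMNB1 in 0.

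**Figure D1:**
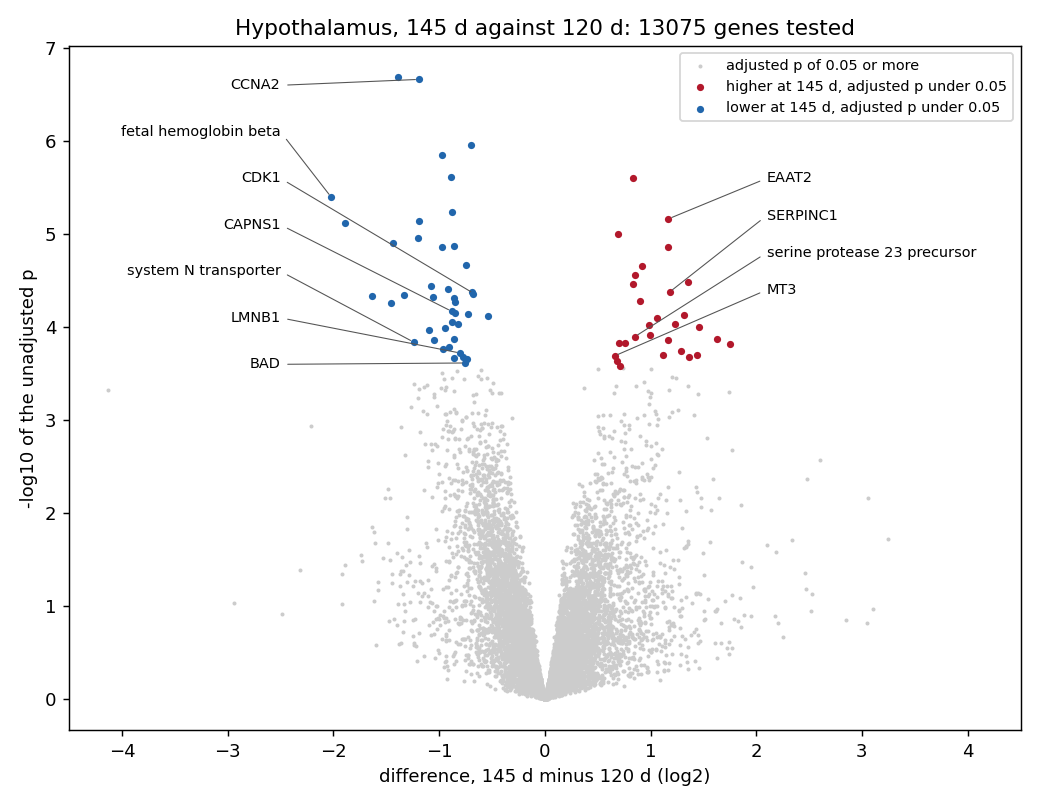
Each point is 1 of 13075 genes, with the difference between 145 and 120 d (log2) on the horizontal axis and -log10 of the unadjusted p on the vertical axis. The 29 genes in red rose and the 42 in blue fell at an adjusted p under 0.05, and labels mark those with a symbol or a product description.

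Most genes that passed could not be named. Symbols were known for 3 that rose and 5 that fell, a product description for 1 that rose and 2 that fell, and the remaining 25 and 35 were known only by an accession. Among those, the largest rise was that of the transcript EE859238, by 1.76 ± 0.38 (SE), and the largest fall that of EE853171, by -1.89 ± 0.32, with adjusted p of 0.0346 and 0.00913. EE853171 measured 11.84, 12.10, 11.89 and 12.08 at 120 d and 10.23, 9.75, 9.87 and 10.50 at 145 d, without overlap. The main fits between ages in hypothalamus held the 24 hypothalamus arrays of the 6 ages, since the study's methods used all ages of a region. With the arrays of 120 and 145 d alone, 4 genes passed, 1 of them among the 71, and CCNA2, the smallest p among those with a symbol, had an adjusted p of 0.0528. With the arrays of 120, 130 and 145 d 12 passed, 9 of them among the 71, and CCNA2 was the 1 of these 9 with a symbol or a product description. Without 1 array of 120 d the count was 26, 25, 20 and 48 for replicates 1 to 4, and without 1 of 145 d it was 47, 34, 71 and 50.

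Genes of astrocytes, the glial cells that clear transmitter from the synapse and regulate ions and metals, gave 2 of the 3 rises with a symbol. EAAT2 (AY157710), the main glutamate transporter of astrocytes and also known as SLC1A2, measured 7.58, 7.0, 7.03 and 7.45 at 120 d. At 145 d it measured 8.51, 8.74, 8.05 and 8.44, all above every 120 d array. The rise was 1.17 ± 0.19 on the log2 scale (SE, n = 4 arrays an age, adjusted p = 0.00913). Both of its probes rose without overlap, by 1.12 and 1.22. One of them lies in the outer rows, and with those rows left out the rise was 1.12.

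MT3 (NM_001009755), a metallothionein of brain that binds zinc and copper, was at a high level at both ages. It measured 14.83, 15.22, 14.97 and 15.54 at 120 d and 15.67, 15.86, 15.86 and 15.82 at 145 d. The groups did not overlap, and the 145 d arrays lay within 0.19 of each other. The rise of MT3 was 0.66 ± 0.15 (SE, adjusted p = 0.0413). MT3 passed without 120 d replicate 4 (adjusted p = 0.0198) and not without any of the other 7 arrays (0.0575 to 0.162), while EAAT2 passed without each of the 8 (0.0119 to 0.0355).

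Of the 33 astrocyte genes listed, 9 were tested, 2 rose and none fell, beside 0.222% of all genes that rose, and their median difference was 0.21 beside 0 over all genes. The lists were chosen with earlier results of these data known, so these counts describe them and test nothing. They hold only genes with a name. The probe for an amino acid system N transporter, of a family found in astrocytes, had no symbol and was not counted, and it fell by 1.24 ± 0.27. GFAP, the intermediate filament of mature astrocytes, measured 10.55, 10.42, 10.18 and 10.41 at 120 d and 10.02, 11.67, 10.89 and 10.85 at 145 d. Of these 8 values the lowest and the highest were both at 145 d, and its difference of 0.47 ± 0.27 did not pass (adjusted p = 0.496). EAAT1, the other astrocyte glutamate transporter, differed by -0.21 ± 0.44, the water channel AQP4 by 0.37 ± 0.81, the gap junction gene GJA1 by 0.21 ± 0.36 and vimentin, VIM, a filament of radial glia and immature astrocytes, by -0.34 ± 0.23. Fewer cells of a type and less RNA per cell cannot be told apart in such bulk samples.

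Oligodendrocyte genes, which serve the cells that make myelin, had 5 members tested of 39 listed. None passed, all 5 differences were above 0 and their median was 0.55. The small heat shock protein CRYAB measured 13.21, 13.21, 12.51 and 13.02 at 120 d and 14.68, 14.05, 12.96 and 13.92 at 145 d, a difference of 0.92 ± 0.28 (adjusted p = 0.153). Replicate 3 at 145 d lay inside the range of 120 d. CX32, the gap junction gene of myelinating cells, differed by 0.55 ± 0.21 and transferrin, TF, by 0.60 ± 0.35. The iron store subunit FTH1 differed by 0.03 ± 0.62 and the tetraspanin CD9 by 0.42 ± 0.66. The myelin protein genes MBP and MOG had no named probe.

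**Figure D2:**
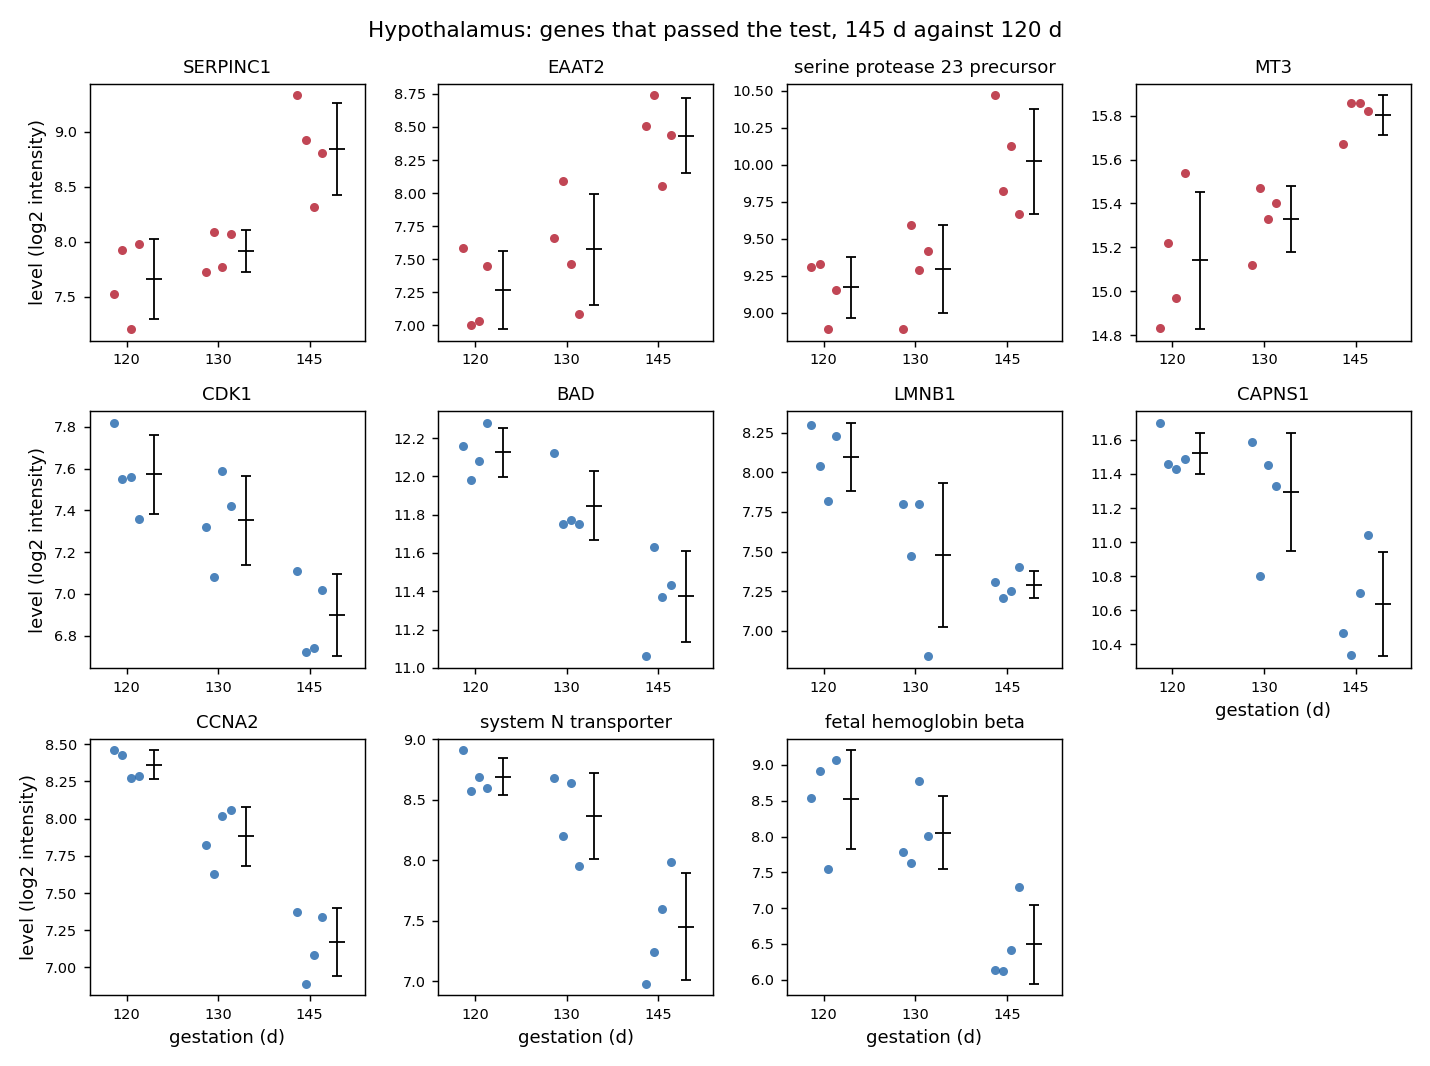
Each panel gives the log2 level of a gene on the 4 arrays of each age (points) at 120, 130 and 145 d, with the mean and SD beside them. All 11 genes passed between 120 and 145 d, 4 higher (red) and 7 lower (blue), and no panel has an array at 145 d within the range of 120 d.

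The cell cycle list held 3 of the 5 falls with a symbol. CCNA2 (FE029555), cyclin A2, which is needed for DNA synthesis and entry into mitosis, measured 8.46, 8.43, 8.27 and 8.29 at 120 d. At 145 d it measured 7.37, 6.89, 7.08 and 7.34, far below. CCNA2 fell by 1.19 ± 0.16 on the log2 scale (SE, adjusted p = 0.00142), and in each of the 8 fits without 1 array it passed, with an adjusted p of 0.00245 to 0.0116.

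CDK1 (NM_001142508), the kinase that drives mitosis together with A and B cyclins, measured 7.82, 7.55, 7.56 and 7.36 at 120 d. At 145 d CDK1 measured 7.11, 6.72, 6.74 and 7.02, below every 120 d array. It fell by 0.67 ± 0.13 (adjusted p = 0.0204), and it passed without 120 d replicate 4 or 145 d replicate 1 or 4 and not without any of the other 5 arrays (adjusted p of 0.051 to 0.0821). LMNB1 (DQ239659), lamin B1 of the nuclear lamina, a structural protein rather than a driver of the cell cycle, measured 8.30, 8.04, 7.82 and 8.23 at 120 d and 7.31, 7.21, 7.25 and 7.40 at 145 d. Its groups did not overlap, and the first probe differed by -0.96 and the second by -0.64. LMNB1 fell by 0.80 ± 0.18 (adjusted p = 0.0407), and the adjusted p without single arrays was 0.0566 to 0.152, above 0.05 in all 8 fits. With the scanner's processed signal, which has no offset, the differences of CCNA2, CDK1 and LMNB1 were -1.98, -1.42 and -1.24, over 1.5 times as large.

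Of the 66 cell cycle genes listed, 14 were tested, 3 fell and none rose, beside 0.321% of all genes that fell. The median difference of the list was -0.38, and 7 of 14 had an unadjusted p under 0.05 in the lower direction, beside 8.01% of all genes. TYMS, thymidylate synthase, which makes the thymidine nucleotide for DNA, measured 8.61, 8.45, 8.32 and 8.27 at 120 d and 7.98, 6.96, 7.35 and 7.43 at 145 d. The groups were separate, but the difference of -0.98 ± 0.23 missed the threshold (adjusted p = 0.0611, or 0.0452 with slide as a block). PCNA, the sliding clamp of DNA polymerase, differed by -0.47 ± 0.15 and was below on every 145 d array, with 10.03 to 10.33 at 120 d and 9.54 to 9.87 at 145 d. CDK4, the kinase of the G1 phase, differed by -0.48 ± 0.16. The D cyclins CCND2 and CCND3 lay above 0, at 0.41 ± 0.36 and 0.17 ± 0.59, and the inhibitors CDKN1B and CDKN1C near it, at 0.04 ± 0.30 and -0.10 ± 0.44.

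CAPNS1 and BAD also fell. CAPNS1 (EE761363), the small regulatory subunit shared by the calcium-activated proteases calpain 1 and 2, measured 11.70, 11.46, 11.43 and 11.49 at 120 d and 10.47, 10.34, 10.70 and 11.04 at 145 d. The arrays at 120 d lay close together and all above those at 145 d. CAPNS1 fell by 0.88 ± 0.17 (adjusted p = 0.0253), and it passed without 145 d replicate 3 or 4 and not without any of the other 6 arrays (0.0535 to 0.0906). Its 1 probe lies in the outer rows, and whether position on the array took part in the difference was not tested. CAST, calpastatin, the protein inhibitor of the same proteases, measured 9.99, 10.31, 9.96 and 9.77 at 120 d and 10.65, 10.82, 10.41 and 10.39 at 145 d. Its groups did not overlap, but its difference of 0.56 ± 0.15 did not pass (adjusted p = 0.101).

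BAD (EE792593), which binds survival proteins of the BCL2 family and promotes apoptosis, measured 12.16, 11.98, 12.08 and 12.28 at 120 d and 11.06, 11.63, 11.37 and 11.43 at 145 d. The groups were separate. BAD fell by 0.75 ± 0.17 (adjusted p = 0.0455), and without single arrays the adjusted p was 0.0525 to 0.141, above 0.05 in all 8 fits. With slide as a block the difference of BAD was -0.70 and did not pass (adjusted p = 0.0986).

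The probe described as an amino acid system N transporter (AY157707), of the family that moves glutamine across the astrocyte membrane, measured 8.91, 8.57, 8.69 and 8.60 at 120 d. At 145 d AY157707 measured 6.98, 7.24, 7.60 and 7.99, with a wider spread and no overlap. It fell by 1.24 ± 0.27 (adjusted p = 0.0346), in the opposite direction to EAAT2. AY157707 passed without 145 d replicate 4 (adjusted p = 0.0245) and not without any of the other 7 arrays (0.0512 to 0.134).

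Other genes with a symbol had small unadjusted p in the lower direction without passing. YBX1, a DNA and RNA binding protein abundant in dividing precursors, measured 14.87, 14.95, 14.73 and 14.76 at 120 d and 13.02, 13.32, 14.15 and 13.86 at 145 d. Its groups were separate, and its difference was -1.24 ± 0.29 (adjusted p = 0.0604). CD93, a surface receptor of endothelium and myeloid cells, differed by -1.02 ± 0.26, with 2 of 4 arrays at 145 d well above background. The AP-1 transcription factor JUND differed by -0.92 ± 0.24, and IGFBP4, which binds insulin-like growth factors, by -0.61 ± 0.16. The adjusted p of these 3 were 0.0777, 0.0887 and 0.0917.

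The rise with the largest difference among symbols was that of SERPINC1 (NM_001009393), antithrombin, a plasma inhibitor of coagulation known mainly from liver. It measured 7.53, 7.93, 7.21 and 7.98 at 120 d and 9.33, 8.92, 8.32 and 8.81 at 145 d, without overlap. SERPINC1 rose by 1.18 ± 0.23 (adjusted p = 0.0204), and its adjusted p was 0.0756 and 0.0871 without 120 d replicate 1 and 3, 0.0575 and 0.0537 without 145 d replicate 1 and 2, and at most 0.0394 without the others. Of the 21 plasma protein genes listed, 9 were tested and SERPINC1 was the 1 that passed, beside 0.222% of all genes that rose, with a median difference of 0.32. The mean level of these 9 genes was 9.07 to 9.49 on the 120 d arrays and 9.62 to 9.96 on those of 145 d. Which cells gave these transcripts was not tested. AHSG, fetuin, differed by 1.63 ± 0.97, where 145 d replicate 1 measured 15.19 and the other 3 between 12.71 and 13.37. Albumin, ALB, differed by 0.12 ± 0.47 and ceruloplasmin, CP, by 0.32 ± 0.13.

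A probe described as serine protease 23 precursor (DQ239650), a secreted protease, measured 9.31, 9.33, 8.89 and 9.15 at 120 d and 10.47, 9.82, 10.13 and 9.67 at 145 d. DQ239650 rose by 0.85 ± 0.18 (adjusted p = 0.0340), without overlap. It passed without 145 d replicate 4 (adjusted p = 0.0245) and not without any of the other 7 arrays (0.0513 to 0.115), nor with slide as a block (0.071). Below the threshold, the rule for named genes gave several more in the higher direction. SCD5, a desaturase of fatty acids expressed in brain, differed by 1.04 ± 0.31, LPL, lipoprotein lipase, by 0.53 ± 0.15, glut4, the insulin-responsive glucose transporter, by 0.66 ± 0.18 and UGT1A9, a glucuronosyltransferase, by 0.65 ± 0.19. Their adjusted p were 0.137, 0.124, 0.0923 and 0.139. Over the other settings the difference of SCD5 ran from 0.11 to 1.25. AREG, the growth factor amphiregulin, differed by 0.75 ± 0.19 and ITGAM, an integrin of microglia and other myeloid cells, by 0.48 ± 0.15 (adjusted p of 0.0827 and 0.148). With slide as a block the difference of AREG was 0.93 and passed (0.0207). The only AREG probe lies in the outer rows, as do probes of ITGAM and glut4, and the part of position in these differences was not tested.

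The largest fall among the 71 was that of fetal hemoglobin. The probe for the fetal beta subunit (TC17172), which with the alpha subunit carries oxygen in fetal red cells, measured 8.54, 8.92, 7.54 and 9.07 at 120 d. At 145 d TC17172 measured 6.14, 6.12, 6.42 and 7.30, and it was well above background on 2 of these 4 arrays. It fell by 2.02 ± 0.32 on the log2 scale (adjusted p = 0.00749), and passed in all 8 fits without 1 array. TC17172 was near background at 145 d, and the size of its fall differed between settings, from -3.91 with the scanner's processed signal to -1.62. HBB, labelled as hemoglobin beta with no stage given, measured 13.54, 14.13, 13.48 and 15.61 at 120 d and 13.87, 12.19, 12.15 and 12.50 at 145 d. Only replicate 1 of the 145 d arrays lay within the range of 120 d, and the difference of -1.51 ± 0.50 did not pass (adjusted p = 0.180). The 2 HBB probes, which share no more than 6 bases in a row with the fetal probe, differed by -2.32 and -0.70. AHSP, the chaperone of alpha hemoglobin in red cell precursors, differed by -0.89 ± 0.42. Of 20 erythroid genes listed, 5 were tested, none passed and the median was -0.01. Their mean level was 8.01 to 8.55 on the 120 d arrays and 7.60 to 8.18 on those of 145 d, and the part of blood in the hemoglobin difference was not tested.

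Neuropeptide genes, the output of the tissue, gave no call. Of 51 listed, 18 were tested, 0 passed, 8 lay above 0 and 10 below, and their median difference was -0.13, or 0.04 without 120 d replicate 4. At an unadjusted p under 0.05, 2 of the 18 were higher and 0 lower, beside 5.15 and 8.01% of all genes. OXT, oxytocin, measured 10.27, 10.31, 8.95 and 10.62 at 120 d and 10.29, 11.41, 10.86 and 11.31 at 145 d. The third array at 120 d was lowest and the groups overlapped through replicate 1, and the difference was 0.93 ± 0.70 (adjusted p = 0.632). At 130 d one array measured OXT at 14.42 and the other 3 at 9.52, 10.23 and 9.94. The same array, 130 d replicate 4, was also the highest of the 12 for AGRP, and for POMC at 12.04, GAL at 10.46, SST at 14.78 and GNRH1 at 7.66.

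**Figure D3:**
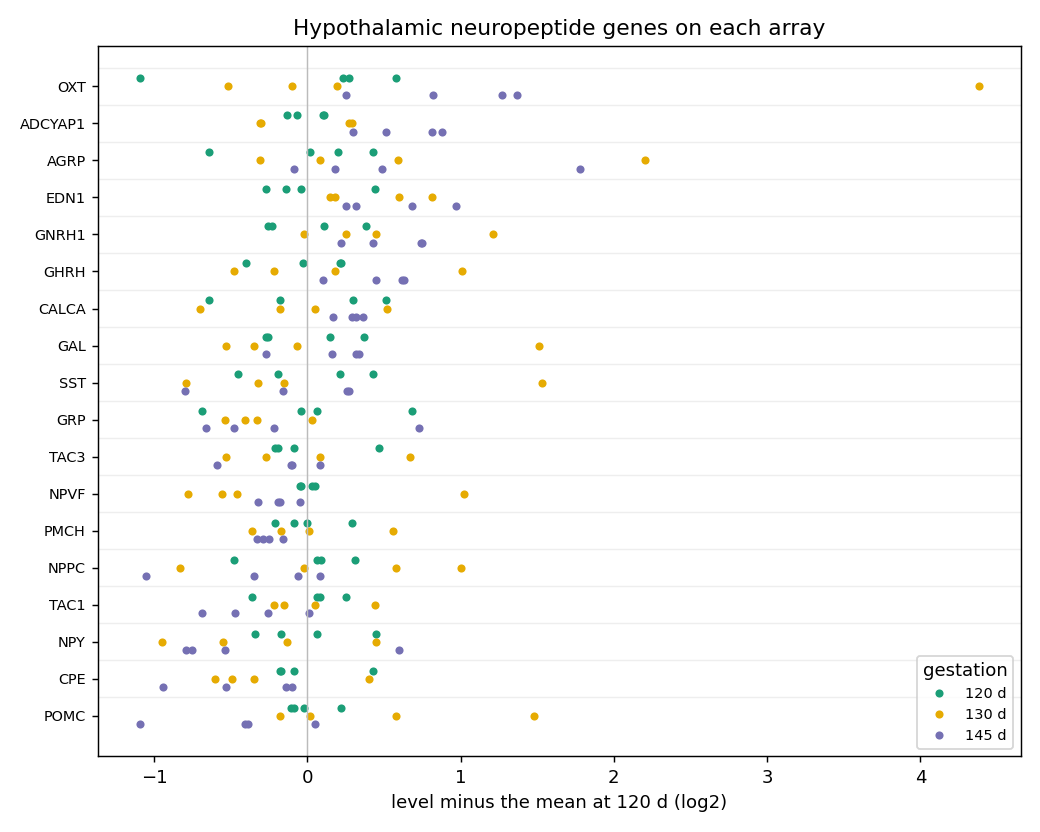
Points give the level of each of 18 neuropeptide genes on each array, as the difference from its mean at 120 d (log2), for 120 d (green), 130 d (yellow) and 145 d (purple). The groups overlap for nearly all genes, and 130 d replicate 4 lies far to the right for OXT, AGRP, GAL, SST and POMC.

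ADCYAP1, the peptide PACAP, measured 13.17, 13.23, 13.40 and 13.41 at 120 d and 13.60, 14.18, 14.11 and 13.81 at 145 d. Its groups did not overlap, though the difference of 0.63 ± 0.31 had an adjusted p of 0.396. EDN1, endothelin 1, differed by 0.56 ± 0.20 and GNRH1, the releasing hormone of the gonadotropins, by 0.53 ± 0.25. AGRP, the orexigenic peptide of the arcuate nucleus, differed by 0.59 ± 0.45, and GHRH, which releases growth hormone, by 0.45 ± 0.33. POMC, the precursor of the melanocortins and beta-endorphin, measured 10.45 to 10.78 at 120 d and 9.47 to 10.61 at 145 d, a difference of -0.46 ± 0.29. NPY differed by -0.37 ± 0.36 and SST, somatostatin, by -0.11 ± 0.40. The SE of these differences were 0.16 to 0.70, beside a median of 0.20 over all genes.

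Hormone receptors gave no call either, with 31 tested of 63 listed, 0 that passed and a median of 0.05. ESR1, estrogen receptor alpha, had the largest difference of the list, 1.65 ± 0.55 (adjusted p = 0.180). It measured 5.90, 9.06, 8.86 and 9.21 at 120 d and 9.74, 10.18, 9.90 and 9.80 at 145 d. Replicate 1 at 120 d lay far below the rest and was not well above background, and without it, a setting chosen after seeing the data, the means were 9.04 and 9.91 and the difference 0.86. The groups of ESR1 did not overlap. A second probe described as estrogen receptor alpha, given under other observations, had overlapping groups and did not show this difference. LEPR, the leptin receptor, differed by 0.26 ± 0.11, and HCRTR1, an orexin receptor, by -0.48 ± 0.17. NR3C1, the glucocorticoid receptor, measured 6.92, 6.88, 6.52 and 6.76 at 120 d and 6.83, 7.23, 6.4 and 7.05 at 145 d, a difference of 0.10 ± 0.19. Of 45 glucocorticoid and stress genes, 10 were tested, 0 passed and the median was -0.05. CRHBP, which binds corticotropin-releasing hormone, differed by -0.16 ± 0.23, and HSD11B1, which regenerates active cortisol, by -0.23 ± 0.22.

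**Figure D4:**
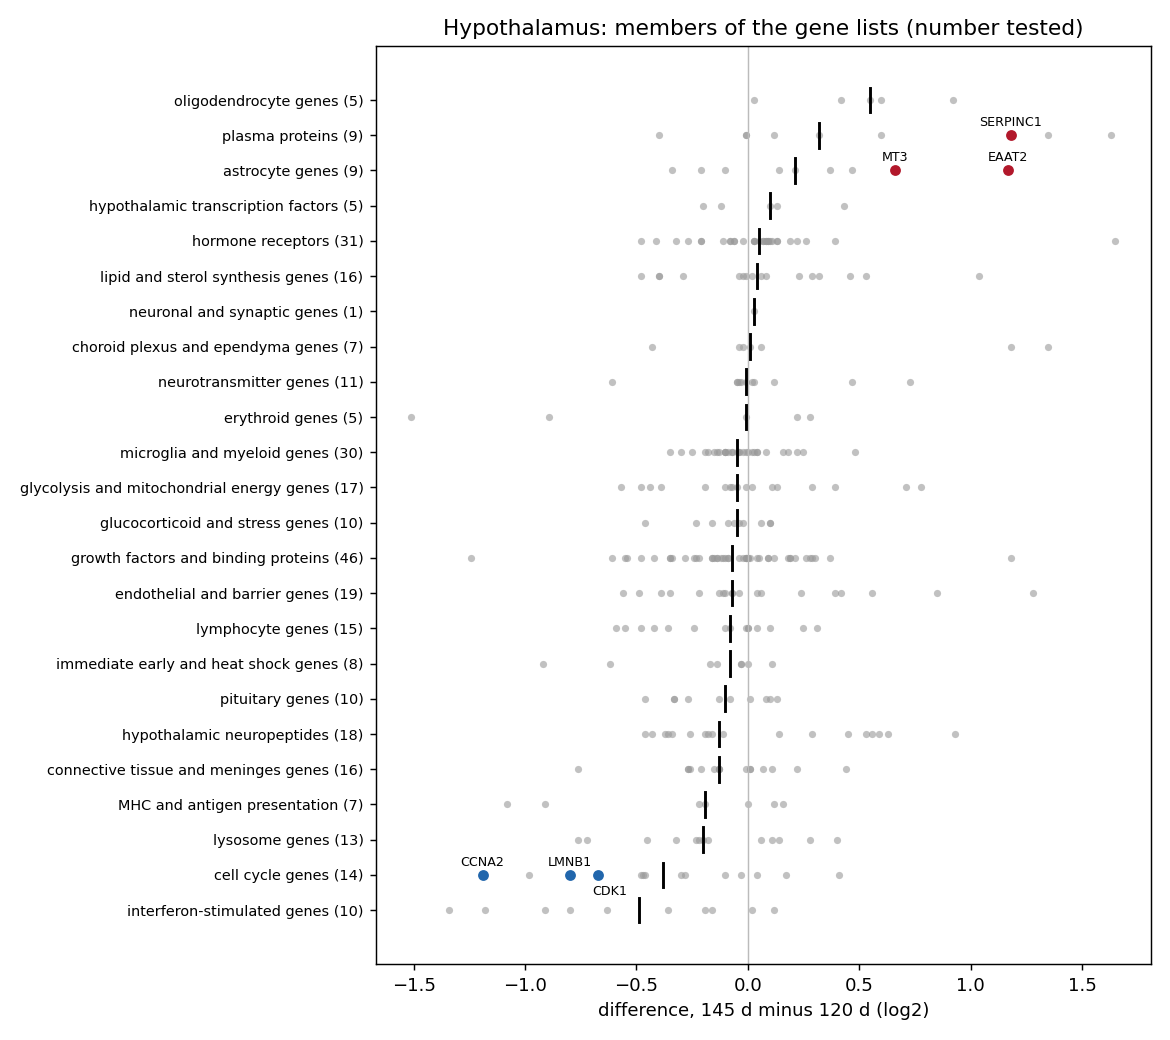
Points are the members of 24 gene lists, placed by their difference between 145 and 120 d (log2), and the black bars are the list medians, with the number of genes tested in brackets. The 6 colored members passed, SERPINC1, MT3 and EAAT2 higher and CCNA2, LMNB1 and CDK1 lower, and the medians run from -0.49 to 0.55.

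Interferon-stimulated genes had the lowest median of the lists, -0.49 over 10 tested, with 0 that passed. One array carried much of it. At 120 d CXCL10, a chemokine induced by interferon gamma, measured 7.60, 8.05, 7.61 and 11.97, and replicate 4 was likewise the highest for ISG15 at 12.56, PSMB8 at 9.59 and B2M at 17.03. The T cell genes CD3D and CD3E measured 8.19 and 8.69 on that array, against 6.54 to 6.56 and 7.13 to 7.31 on the other 3. Without 120 d replicate 4 the median of the interferon list was -0.19, and that of the 7 MHC and antigen presentation genes tested was -0.03 in place of -0.19. The median of the 15 lymphocyte genes tested was -0.08 and without that array -0.06. No gene of these 3 lists passed.

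The remaining lists held no gene that passed. The medians were 0.04 for 16 lipid and sterol synthesis genes, -0.05 for 17 glycolysis and mitochondrial energy genes, -0.20 for 13 lysosome genes, -0.05 for 30 microglia and myeloid genes and -0.07 for 46 growth factors and binding proteins. They were -0.07 for 19 endothelial and barrier genes, -0.01 for 11 neurotransmitter genes, -0.08 for 8 immediate early and heat shock genes and 0.10 for 5 hypothalamic transcription factors. Among lists that mark tissue next to the hypothalamus, the medians were -0.10 for 10 pituitary genes, 0.01 for 7 choroid plexus and ependyma genes and -0.13 for 16 connective tissue and meninges genes. The list of neuronal and synaptic genes had 1 gene tested of 50, PRNP, at 0.03 ± 0.28. In the lysosome list the protease CTSD differed by -0.72 ± 0.27, and in the neurotransmitter list the NMDA receptor subunit GRIN1 by -0.61 ± 0.22, from 7.14 to 7.57 at 120 d to 6.75 to 6.95 at 145 d.

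The arrays at 130 d place these differences in time. Between 120 and 130 d, 0 genes passed (0%; 390 genes, 2.98%, at an unadjusted limma p under 0.05), and between 130 and 145 d 0 passed (0%; 952 genes, 7.28%). The lowest adjusted p were 1 and 0.234. For all 29 genes that rose and all 42 that fell the mean at 130 d lay between the other means, and it was nearer to 120 d for 22 of the 29 and 33 of the 42. These genes were chosen on their end points, so these counts are a description. Their median difference was 0.34 and then 0.72 for those that rose, and -0.35 and then -0.63 for those that fell.

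Single genes differed in their timing. CCNA2 measured 7.82, 7.63, 8.02 and 8.06 at 130 d, below every 120 d array and above every 145 d array, and its mean went from 8.36 to 7.88 and 7.17. LMNB1 went from 8.10 to 7.48 and 7.29, with 130 d replicate 4 at 6.84. EAAT2 went from 7.27 to 7.57 and 8.43, SERPINC1 from 7.66 to 7.91 and 8.84 and CAPNS1 from 11.52 to 11.29 and 10.64. For LMNB1 the earlier step had the larger difference, and for the other 4 the later one. The steps span unequal times, and whether they differ from each other was not tested.

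The same differences were set beside those of the other regions, fitted over all 95 arrays. The study's methods describe dissecting all regions from each fetal brain, and the labels do not name the animal. The fit held no term for animal, so like values in several regions can come from the same fetuses and are not independent readings. For no gene did the difference between 145 and 120 d in hypothalamus depart from the mean of the other 3 regions at an adjusted p under 0.05 (0%; 712 genes, 5.45%, at an unadjusted limma p under 0.05; lowest adjusted p 0.454). The genes that passed in hypothalamus had medians in cortex, brainstem and hippocampus of 0.29, 0.67 and 0.58 for the rises and -0.58, -0.80 and -0.38 for the falls. They were chosen in hypothalamus, so a smaller value elsewhere is not a difference between regions.

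EAAT2 differed by 1.17, 1.1, 1.09 and 0.75 in hypothalamus, cortex, brainstem and hippocampus, and MT3 by 0.66, 0.69, 0.72 and 0.84. LMNB1 differed by -0.80, -0.68, -0.86 and -0.84, and CDK1 by -0.67, -0.75, -0.81 and -0.47. For these 4 genes the departure of hypothalamus was 0.19 ± 0.23, -0.09 ± 0.20, -0.01 ± 0.22 and 0.01 ± 0.28, less than its SE in each. CCNA2 differed by -1.19, -0.77, -1.15 and -0.60, with a departure of -0.35 ± 0.32. SERPINC1 differed by 1.18, -0.36, 0.67 and 0.28, and BAD by -0.75, -0.37, -0.33 and 0.34. Their departures of 0.99 ± 0.41 and -0.63 ± 0.22 were over 2 times their SE but did not pass (adjusted p of 0.75 and 0.609). Those of serine protease 23 precursor (DQ239650), AY157707 and TC17172 were 0.34 ± 0.32, -0.71 ± 0.45 and -0.64 ± 0.61. Fetal hemoglobin beta differed by -2.02, -1.92, -1.38 and -0.86, in the same order.

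The 3 genes with a symbol and the smallest p for a departure were CAPNS1, PTGDS and ALDOA. CAPNS1 differed by -0.88 in hypothalamus, 0.43 in cortex, -0.41 in brainstem and 0.42 in hippocampus (SE 0.23 each), a departure of -1.03 ± 0.26 with an adjusted p of 0.454. PTGDS, the synthase of prostaglandin D2 that is abundant in meninges and choroid plexus, differed by -0.43 in hypothalamus, 1.47 in cortex, -0.31 in brainstem and 1.19 in hippocampus, a departure of -1.21 ± 0.31. The values of PTGDS in brainstem were on the side of hypothalamus, and those of cortex and hippocampus on the other. ALDOA, the glycolytic enzyme aldolase A, differed by -0.48 in hypothalamus, 0.77 in cortex, 0.18 in brainstem and 0.63 in hippocampus, a departure of -1.0 ± 0.29. Probes of CAPNS1 and ALDOA lie in the outer rows. With slide as a block the departure of CAPNS1 was -1.02 with an adjusted p of 0.00939, and 4 genes passed in place of 0.

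**Figure D5:**
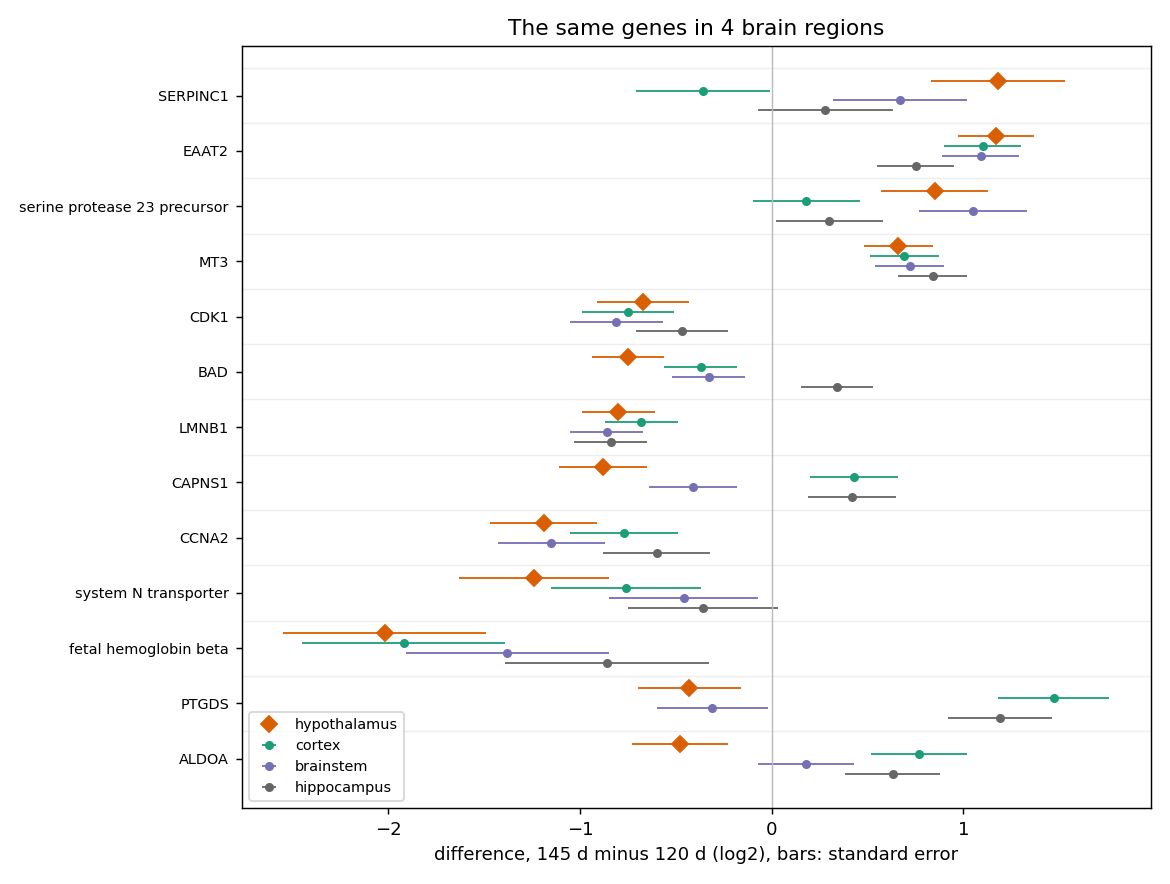
The difference between 145 and 120 d (log2, bars show the SE of the fit over all regions) is given for the 11 named genes that passed and for PTGDS and ALDOA in hypothalamus (orange), cortex (green), brainstem (purple) and hippocampus (grey). EAAT2, MT3, LMNB1, CDK1 and CCNA2 lie on the same side of 0 in each region, while CAPNS1, PTGDS and ALDOA lie below 0 in hypothalamus and above it in cortex and hippocampus.

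Slides 1, 2 and 3 held arrays of both ages. Within these slides EAAT2 differed by 0.93, 1.74 and 1.21, CCNA2 by -1.09, -1.55 and -1.06, and fetal hemoglobin beta by -2.40, -2.80 and -0.68. The fourth array at 120 d was alone on its slide. Without 120 d replicate 4 and 145 d replicate 1 together, an alternative chosen after seeing the data, 30 genes passed, 21 of them among the 71.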

How the data were processed

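The authors labeled RNA of each sample with Cy3 and read 1-color ovine arrays with scanner software (version 10.1.1.1 in the file headers). The deposited array files give the mean intensity and local background intensity of each spot, not normalized between arrays. The authors also deposited a table of normalized log2 values, used as an alternative.

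From the intensities, background was removed by normexp with an offset of 50 in limma 3.58.1 (R 4.3.3), which narrows differences of dim probes. A local background over 2 times the array median was set to the median and the spot left out, a step added after seeing the data. Control spots and spots marked as outliers were left out. Values were quantile normalized over 95 arrays. Probes had to reach, on 4 or more hypothalamus arrays, 1.1 times the level that 95% of the 77 negative controls stayed under. Probes of a gene were averaged. Symbols came from the files and the RefSeq table of ARS-UI_Ramb_v3.0, which named 703 probes through an accession, 500 through a symbol, 125 through a gene identifier and 20 through a synonym. Another 214 carry the name in the file.

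The 24 hypothalamus arrays were fitted with a mean per age (lmFit, eBayes; two-sided; Benjamini-Hochberg adjusted over 13075 genes). All unadjusted and adjusted p come from limma, with 18 residual degrees of freedom. With 4 arrays an age, a p sets a difference against the spread within all groups of the fit, moderated over genes by eBayes. The spread of the compared arrays alone does not set it. Named genes were the 12 largest rises and falls with a symbol that passed without overlap, filled to 10 a direction by smallest p, the 6 largest each way among described products, the 3 smallest p for the regional departure, and list members that passed. PCNA, CDK4 and other list members given as values show a list's range, and they, like the remarks on single arrays, were chosen after values were seen. The members and lists were chosen with earlier results of these data known. The number of arrays limits the precision: the median SE of a difference was 0.20. The lowest level well above background was 5.66 to 6.23. Figures were drawn with matplotlib 3.10.9. Alternatives were other background, normalization, filter, probe, sample, block and variance settings, and leaving out each array.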

Additional observations from a re-analysis of the deposited data

Results flagged for a closer look

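Levels of the named genes were searched for single arrays far from the other 3 of their age, by the gap to the nearest array over the range of the group. CAST on 130 d replicate 2 measured 10.06 beside 10.50 to 10.58 on the other 3 arrays. BAD on 130 d replicate 1 measured 12.12 beside 11.75 to 11.77. ALDOA on 130 d replicate 4 measured 12.49 beside 12.11 to 12.17. These were 3 of 75 groups, or 4%, and chance alone marks about 1 in 20. All 3 are at 130 d, which enters the comparison of 145 with 120 d through the spread of the fit and not through its means.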

How the results depend on the processing

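Of 71 genes that passed between 120 and 145 d, the count was 4 with only the arrays of 120 and 145 d (1 shared with the 71), 12 with only those of 120, 130 and 145 d (9 shared), 125 with the replicate block (68 shared), 159 with the local trend of each array removed (68 shared) and 30 without 120 d replicate 4 and 145 d replicate 1 (21 shared). Without single arrays it was 20 to 71. It was 26, 25 and 20 without 120 d replicate 1, 2 and 3, and 47 and 34 without 145 d replicate 1 and 2. Of the 71, 15 passed in every fit that left out 1 array, CCNA2 and EAAT2 among them. The other settings gave 58 to 100. With slide as a block 53 genes rose and 47 fell, 57 of them among the 71. Without single arrays 0 to 1 genes passed between 130 and 145 d. The departure from the other regions gave 4 genes with slide as a block. Removing the local trend, leaving out outer rows, using the background as deposited and leaving out that pair of arrays were chosen after seeing the data.

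No named gene reversed in 622 alternative values, as arrays that do not overlap largely fix, and 506 were on the same side of the threshold, 101 no longer passed and 15 newly passed. List medians moved by less than the spread in 561 of 600. Of the genes that passed, CCNA2 passed in 24 of 25 settings, EAAT2 in 23, TC17172 in 22, SERPINC1 and CDK1 in 18, AY157707 in 15, CAPNS1 in 13 of 24, MT3 and DQ239650 in 11, LMNB1 in 10 and BAD in 8. Deviations of like-numbered arrays from the group means correlated at 0.26, 0.31, 0.38 and -0.07. Replicates 1, 2 and 3 of both ages share slides 1, 2 and 3, while replicates 4 do not share a slide. Slide 3 also held 145 d replicate 4, whose deviations correlated at 0.34 with those of 120 d replicate 3. Pairs on different slides correlated at -0.29 to 0.25. The main fits held no term for slide. Since not every like-numbered pair correlated and the labels tie no numbers, the numbers were not taken to pair the samples. The replicate block is given for its count alone. The steps from and to 130 d could not be fitted with only the arrays of 120 and 145 d. What 4 arrays an age, signal over background and the few named probes leave unseen is not evidence of no change.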

Other observations

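Several probes without a symbol carry a description of biology not covered above, and they were chosen after their values were seen. A probe for the mitotic cyclin B1 (TC9892), the partner of CDK1, measured 9.84, 9.99, 9.70 and 9.80 at 120 d and 9.50, 8.88, 8.63 and 8.98 at 145 d. TC9892 did not overlap between the ages, and its difference of -0.83 ± 0.19 lay just past the threshold (adjusted p = 0.0506). A probe for a splice variant of GTL2 (AY017219), the imprinted noncoding RNA also called MEG3, measured 6.64, 6.6, 6.47 and 6.52 at 120 d and 7.20, 7.54, 7.20 and 7.48 at 145 d. AY017219 differed by 0.80 ± 0.31 (adjusted p = 0.251), without overlap, and at 130 d it measured 6.38, 7.62, 6.52 and 7.84.

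Probes for the same product did not always give the same value. A second probe described as estrogen receptor alpha (TC11510) measured 9.16, 9.17, 9.28 and 9.31 at 120 d and 9.47, 8.40, 9.36 and 9.41 at 145 d. TC11510 differed by -0.07 ± 0.20, where ESR1 differed by 1.65 ± 0.55, or by 0.86 without 120 d replicate 1. A probe for the 3′ end of lipoprotein lipase (AF228667) differed by 1.15 ± 0.47, where LPL differed by 0.53 ± 0.15. The glycolytic gene GAPDH, often taken as a reference, measured 8.74, 10.14, 8.40 and 10.19 at 120 d and 10.79, 10.24, 9.80 and 9.77 at 145 d, a difference of 0.78 ± 0.35. Probes of a partial GAPDH transcript (U94718) differed by -0.44 ± 0.26, and neither difference passed (adjusted p of 0.346 and 0.507).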
